A study of Mus musculus with 40 samples.

Results

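The mouse mitochondrial genome carries 37 genes, and all 37 were found among the 52636 genes of the count table by their symbols, which begin with mt-. They are 13 protein-coding genes, 2 ribosomal RNAs and 22 transfer RNAs. They were followed in brown adipose tissue, the heat-producing fat, of 40 male C57BL/6 mice, with 5 in each of 8 groups, each numbered sample being taken here as 1 mouse. Mice were 10 to 12 weeks old by the series design and 10 to 14 weeks old by the sample protocol. Control mice received 1 intraperitoneal dose of an anti-ragweed antibody at 40 mg/kg, and the other mice received antibodies that block the Notch ligands Jag1 and Jag2 at 20 mg/kg each (here, Jag antibody mice). Tissue was taken at 15 h, 5 d or 7 d. In 2 further groups at 7 d, 1 per antibody, mice were also injected daily from day 2 with the thyroid hormones T4, at 1 µg/g body weight, and T3, at 0.05 µg/g. The antibodies act on the whole animal, and no group carries a transgene or a deletion by the labels. RNA came from whole tissue, so fewer cells of a type and less RNA per cell cannot be told apart.

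The circular mitochondrial genome is transcribed from both strands into long precursors. Transfer RNAs lie between most of the protein and ribosomal RNA genes, and cutting them out releases the separate messages. The messages encode core subunits of respiratory complexes I, III and IV and of the ATP synthase, while the remaining subunits are nuclear genes translated in the cytosol. In brown adipocytes this respiratory chain builds the proton gradient that Ucp1 turns into heat, and thyroid hormone is a known regulator of that programme.

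Many of these genes also exist as near-identical, inserted copies in the nuclear genome, and a 50-base read from such a stretch has more than 1 possible source. All sequences below were read from the GENCODE M21 transcripts (GRCm38). The share of each gene's 50-base windows that occur letter for letter in an annotated nuclear transcript was 100% for mt-Co2, 99.9% for mt-Co3, 99.5% for mt-Atp6, 98.8% for mt-Nd4l and 98.0% for mt-Nd3. It was 62.2% for mt-Nd4, 51.1% for mt-Co1, 8.19% for mt-Nd2, 7.61% for mt-Nd5 and 1.04% for mt-Rnr2. It was 0% for mt-Nd1, mt-Nd6, mt-Cytb, mt-Atp8, mt-Rnr1 and the 22 transfer RNA genes. Nuclear sequence outside annotated transcripts was not searched, so 0% does not mean that no nuclear copy exists. The matches lay in 15 nuclear genes. 8 were on other chromosomes, and 7 were pseudogenes in 1 stretch of chromosome 1 between 24611535 and 24616197, where Gm28661 matches mt-Co2, Gm10925 matches mt-Atp6 and Gm28439 matches mt-Nd4. The first bases of mt-Co2 (chrM:7013-7102, + strand) and of mt-Cytb (chrM:14145-14234, + strand) and 2 edges show the contrast, with bases that lie in a shared 50-base stretch in capitals. The mt-Nd4 edge (chrM:10983-11102, + strand) is where its shared first 876 bases end, and the mt-Co1 edge (chrM:6334-6453, + strand) is where its longest shared run of 479 bases begins.
mt-Co2 start: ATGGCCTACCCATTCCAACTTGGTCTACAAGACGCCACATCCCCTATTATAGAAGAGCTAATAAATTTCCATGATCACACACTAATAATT
mt-Cytb start: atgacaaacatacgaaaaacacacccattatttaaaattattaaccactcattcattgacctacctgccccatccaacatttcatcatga
mt-Nd4 edge: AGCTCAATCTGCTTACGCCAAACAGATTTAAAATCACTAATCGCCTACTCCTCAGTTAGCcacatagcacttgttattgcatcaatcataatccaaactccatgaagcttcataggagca
mt-Co1 edge: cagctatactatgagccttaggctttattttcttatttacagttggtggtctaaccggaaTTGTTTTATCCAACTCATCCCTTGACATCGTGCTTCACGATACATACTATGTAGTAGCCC

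Neighbouring genes also overlap, and whether counting used the strand is not given in the sources used here. The end of mt-Atp8 (chrM:7766-7969, + strand), a subunit of the ATP synthase, lies inside mt-Atp6 over 43 bases. The transfer RNA mt-Ts1 (chrM:6870-6938, - strand) meets the end of mt-Co1 over 3 bases on the opposite strand. These 2 are printed with the overlap in capitals, beside mt-Tc (chrM:5192-5257, - strand), the most counted transfer RNA gene, and mt-Tm (chrM:3845-3913, + strand), which carries methionine; the last 2 overlap no other gene.
mt-Atp8: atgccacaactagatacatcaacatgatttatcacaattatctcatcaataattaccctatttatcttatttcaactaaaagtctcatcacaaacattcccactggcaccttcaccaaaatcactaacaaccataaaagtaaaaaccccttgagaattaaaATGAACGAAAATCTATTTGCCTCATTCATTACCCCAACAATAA
mt-Ts1: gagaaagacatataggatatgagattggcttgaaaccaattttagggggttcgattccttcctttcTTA
mt-Tc: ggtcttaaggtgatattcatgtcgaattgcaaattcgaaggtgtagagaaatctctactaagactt
mt-Tm: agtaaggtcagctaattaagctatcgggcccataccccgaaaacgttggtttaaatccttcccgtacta

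Counts were spread very unevenly over the 13 messages. Per kilobase, the median over 40 mice was 1150660 counts for mt-Cytb, the complex III subunit, 664347 for mt-Nd1 and 410970 for mt-Nd2, both of complex I. It was 293318 for mt-Nd4, 269280 for mt-Co1, the catalytic subunit of complex IV, 158891 for mt-Nd6 and 109729 for mt-Nd5. These 7 genes held 99.76% to 99.91% of the mitochondrial counts of every mouse. The other 6 messages had a median of 2126 counts per kilobase for mt-Co2, 1424 for mt-Atp6, 1108 for mt-Co3, 297 for mt-Atp8, 281 for mt-Nd4l and 254 for mt-Nd3. The 5 genes with at least 98.0% shared windows were thus all among the 6 scarce ones. mt-Atp8 was the sixth, with no shared window in an annotated transcript. It lies between mt-Co2 and mt-Atp6, whose copies on chromosome 1 begin at 24614885 (Gm28661) and end at 24614651 (Gm10925). Unannotated sequence between those copies was not searched. How reads with more than 1 source were counted is not given in the sources used here, and the part of shared sequence in these levels was not tested. The counts on the copies themselves were low: Gm28661 had a median of 117.5 counts, Gm10925 of 238.5 and Gm28439 of 98.5.

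**Figure D1:**
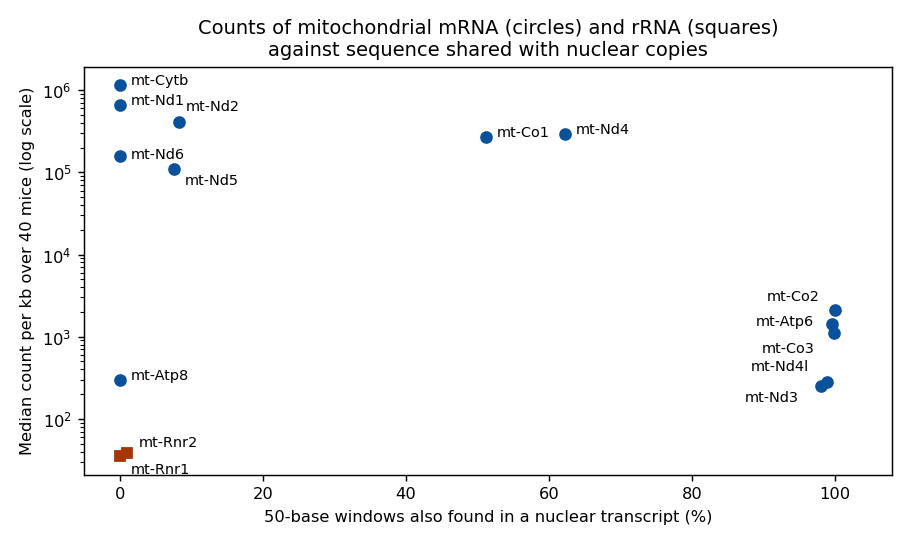
Each point is 1 mitochondrial message (circle) or ribosomal RNA (square); the horizontal axis is the percentage of its 50-base windows found in a nuclear transcript and the vertical axis, on a log scale, its median count per kilobase over 40 mice. The 5 genes at 98.0% or more lie at 2126 or fewer counts per kilobase, while mt-Co1 and mt-Nd4, at 51.1% and 62.2%, lie at 269280 and 293318.

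The 2 ribosomal RNAs, which form the core of the mitochondrial ribosome, were close to the lower end of the counts. mt-Rnr1 (the small subunit RNA) had a median of 33.5 counts (10 to 235 over the mice) and mt-Rnr2 (the large subunit RNA) of 61.5 (27 to 162). Whether ribosomal RNA was depleted or polyadenylated RNA selected is not given in the sources used here, so these levels stand for what the libraries kept. Of the 22 transfer RNA genes, 9 had a median of at least 10 counts. mt-Tc, for cysteine, led with a median of 793 counts, followed by mt-Tq, for glutamine, at 368.5 and mt-Tl1, for leucine, at 154.5. mt-Tn and mt-Tk had no count in any of the 40 mice. By counting error alone this allows up to 0.0822 to 0.246 CPM (counts after every library total is brought to the same size), depending on the library. Reads left out before counting are not covered by that limit. In all, 25 members passed the low-count filter and were tested: the 13 messages, both ribosomal RNAs and 10 transfer RNA genes.

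Libraries held 12217623 to 36511893 counts. Ucp1, which marks brown fat, made up 0.0707% to 1.46% of them, and all 10 brown adipocyte markers were counted in every mouse. Counts of 8 skeletal muscle markers summed to 12.9% in control mouse 5 at 5 d and 5.36% in Jag antibody mouse 6 at 7 d, and to 2.90% or less elsewhere. Control mouse 4 at 7 d stood at the edge on several measures, with the smallest total, the smallest scaling factor (0.65) and the lowest length slope (-0.62). The length slope is the change in log2 expression per doubling of gene length, relative to the mean library. Nothing in the labels says whether mice of different times were processed together, so time and collection cannot be told apart.

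The share of all counts that fell on the 37 genes ranged from 9.72% to 28.7% over the mice. At 15 h it was 25.5%, 19.2%, 22.4%, 26.0% and 24.5% in control mice and 23.8%, 27.6%, 28.7%, 23.2% and 24.4% in Jag antibody mice. As shares of the raw total these were the highest group means, 23.5% ± 2.79 and 25.5% ± 2.45 (SD, n = 5 each), and the groups overlapped. This order of the groups depends on the scaling, as given with the results that depend on the processing. Brown adipocyte markers summed to 1.16% to 2.53% of counts in these control mice and 2.705% to 3.21% in these Jag antibody mice, without overlap. 10 myeloid markers summed to 0.0307% to 0.801% and 0.0290% to 0.0574%. The part of cell makeup in these shares was not tested. At 5 d the mitochondrial share was 15.5%, 15.4%, 9.72%, 15.2% and 13.4% in control mice and 15.5%, 16.5%, 22.2%, 18.6% and 17.0% in Jag antibody mice. The lowest Jag antibody mouse, at 15.50%, was just above the highest control mouse, at 15.47%, so the groups did not overlap, with means of 18.0% ± 2.62 and 13.8% ± 2.46. Without the muscle-rich control mouse 5 the difference was 4.03 percentage points instead of 4.14. Without Jag antibody mouse 8 it was 3.08. The 5 d groups also did not overlap in muscle markers, which summed to 0.0918% to 12.9% in control mice with all 8 counted in each, and to 8.70e-05% to 0.00443% in Jag antibody mice, where Ckm, Myh1, Myh4 and Tnnt3 were at 0 in at least 1 mouse. The part of muscle in the difference was not tested. Taking muscle markers out of the total left 3.60 percentage points, and the groups then overlapped, with control mouse 4 above Jag antibody mouse 6.

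At 7 d the share was 21.1%, 21.8%, 15.9%, 25.2% and 15.9% in control mice, and 12.4%, 18.4%, 20.8%, 20.4% and 14.2% in Jag antibody mice. The groups overlapped widely, with means of 20.0% ± 4.05 and 17.2% ± 3.77. Under T3/T4 it was 15.5%, 13.9%, 10.8%, 10.9% and 12.8% in control mice, and 16.5%, 16.4%, 15.9%, 15.1% and 18.0% in Jag antibody mice. Every hormone-treated control mouse lay below every control mouse without hormone, with a mean of 12.8% ± 2.03 and a difference of 7.21 percentage points. Jag antibody mice with hormone (16.4% ± 1.06) lay within the range of those without. The Jag antibody mice with hormone exceeded 4 of the 5 hormone-treated control mice each, and the highest of those, at 15.53%, was above the lowest Jag antibody mouse, at 15.06%. A 95% Wilson interval for 1 mouse's share was at most 0.0244 percentage points on either side, so spread between mice, and not counting, set these errors. The shares are sums over members and were not tested.

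**Figure D2:**
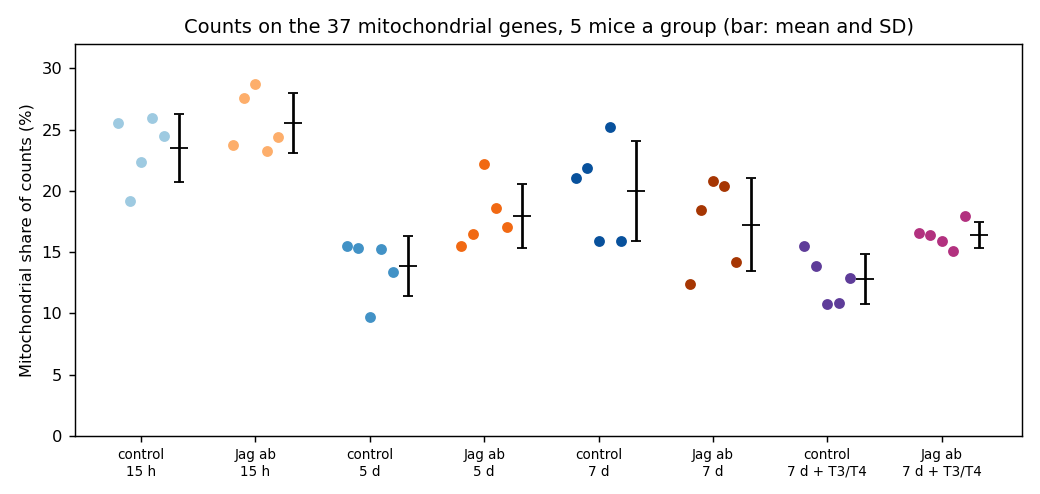
Percentage of each library's counts on the 37 mitochondrial genes, 1 point per mouse, with bars for the mean and SD of 5 mice. On this share of the raw total the 15 h groups have the highest means (19.2% to 28.7% over the mice). Hormone-treated control mice (10.8% to 15.5%) lie below all control mice at 7 d without hormone (15.9% to 25.2%).

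The tests used counts scaled between libraries by TMM, a factor per library that centres the fold changes of most genes, and a member with a Benjamini-Hochberg adjusted p under 0.05 over all 17079 genes in edgeR's quasi-likelihood test is said to be called. Levels below are log2 CPM on that scale, and fold changes are log2. At 15 h none of the 25 members was called, against 1.14% of all genes. 2 had an unadjusted p under 0.05, beside 2052 of all 17079 genes, and DESeq2 and limma-voom also called 0. The median log2 fold change was 0.16, beside -0.04 over all genes. mt-Tt, the threonine transfer RNA, was the only member whose groups did not overlap, higher in Jag antibody mice at 1.11 (SE 0.54, adjusted p = 0.40), against 1.56% of all genes. mt-Rnr2 stood at 1.63 and 2.53 in control and Jag antibody mice, a difference that missed the threshold (1.03, SE 0.39, adjusted p = 0.20). All 10 myeloid markers had lower values in Jag antibody mice (median -2.40). Of these 2 were called, against 154 of all 17079 genes called lower, and for none of the 10 were the groups without overlap. The mean log2 CPM over the 10 myeloid markers was 8.61 and 6.67 in control mice 2 and 3. It was 2.55 to 4.25 in the other control mice and 3.21 to 5.07 in Jag antibody mice. All 10 brown adipocyte markers had higher values (median 0.53). Of these 1 was called, against 40 of all genes called higher. Control mice 2 and 3 also had the lowest mean log2 CPM over these 10, at 7.49 and 8.16. The other control mice were at 9.09 to 9.54 and Jag antibody mice at 9.46 to 10.3. The part of either marker set in the mitochondrial values was not tested.

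At 5 d none of the 25 members was called, against 8.02% of all genes. 4 had an unadjusted p under 0.05, beside 3907 of all 17079 genes, and DESeq2 and limma-voom called 0. The median over the 25 was 0.41, beside 0.04 over all genes. mt-Co1 was at 14.20, 14.48, 13.37, 14.11 and 14.21 in control mice and 14.37, 14.62, 15.03, 14.62 and 14.69 in Jag antibody mice. 4 of 5 Jag antibody mice lay above every control mouse (0.56, SE 0.24, adjusted p = 0.14). mt-Nd4, of complex I, differed by 0.50 (SE 0.21, adjusted p = 0.15). With total counts in place of TMM, mt-Co1 (0.64, adjusted p = 0.035) and mt-Nd4 (0.59, adjusted p = 0.018) were called, as mt-Ts1 was, at 2.14, without the muscle-rich control mouse 5. With the muscle score in the fit the differences were 0.41 for mt-Co1 and 0.36 for mt-Nd4.

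At 7 d without hormone, 1 of 25 members fell in Jag antibody mice, against 1.29% of all genes called lower and 2.5% called in either direction. It was mt-Rnr2, the large ribosomal RNA. Its counts were 74, 127, 113, 137 and 70 in control mice and 34, 59, 101, 29 and 28 in Jag antibody mice, or 2.82 ± 0.99 and 1.19 ± 0.63 in log2 CPM (SD, n = 5). Jag antibody mouse 8, at 1.93, lay above control mouse 5, at 1.78, so the groups overlapped. The log2 fold change was -1.82 (SE 0.40, adjusted p = 0.0105). The call was lost without control mouse 4, at -1.37 (adjusted p = 0.064), and in a fit of these 2 groups alone (adjusted p = 0.14). mt-Rnr1, the small ribosomal RNA, was at -1.48 (SE 0.49, adjusted p = 0.093) and did not pass.

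18 of 25 members had a lower fitted mean in Jag antibody mice at 7 d, as 7918 of all 17079 genes did. The median was -0.48 beside 0.05 over all genes. 13 had an unadjusted p under 0.05, beside 3504 of all genes. mt-Ts1, the serine transfer RNA printed above, was at 3.99, 3.22, 4.47, 3.62 and 2.92 in control mice and 2.41, 2.62, 0.75, 1.99 and 2.49 in Jag antibody mice. It was the only member whose groups did not overlap, against 1.6% of all genes lower in that way, and it did not pass (-1.59, SE 0.58, adjusted p = 0.13). mt-Co3, a complex IV subunit, was at -1.14 (SE 0.37, adjusted p = 0.090) and mt-Nd3, of complex I, at -1.31 (SE 0.45, adjusted p = 0.11). DESeq2 called 4 members lower: mt-Rnr2, mt-Rnr1, mt-Co3 and mt-Nd3. At the other end, the highest value was 1.34 for mt-Tp, the proline transfer RNA (SE 0.63, unadjusted p = 0.0387, adjusted p = 0.22), a scarce member at -1.93 in control mice and -1.11 in those given Jag antibody. The transfer RNAs mt-Ts2 (0.69), mt-Tl2 (0.54) and mt-Tc (0.24) and the messages mt-Nd5 (0.21, SE 0.31) and mt-Nd6 (0.08, SE 0.25) also had positive values and did not pass. Of the 10 brown adipocyte markers 8 had a lower value in Jag antibody mice at 7 d, with a median of -0.69, none called and 5 at an unadjusted p under 0.05. They summed to 3.06% to 5.52% of counts in control mice and 1.83% to 3.67% in Jag antibody mice, with none at 0, and their part in these values was not tested. Under hormone none of the 25 was called between the antibodies, against 1.14% of all genes, and DESeq2 and limma-voom called 0. Of the 25, 3 had an unadjusted p under 0.05, beside 2026 of all 17079 genes. The median there was 0.40, and 22 of 25 values were positive, with mt-Ts1 at 1.50 (SE 0.57, adjusted p = 0.24) and mt-Co1 at 0.61 (SE 0.24, adjusted p = 0.25).

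T3/T4 in control mice gave the most calls. 14 of 25 members fell and none rose, against 22.9% of all genes called lower and 20.3% called higher (43.2% in either direction). They were 10 of 13 messages, both ribosomal RNAs and 2 of the 10 tested transfer RNAs, and the median over the 25 was -0.95, beside 0.04 over all genes. For 7 members every treated mouse lay below every untreated mouse, against 15.2% of all genes: mt-Nd1, mt-Nd3, mt-Nd4, mt-Cytb, mt-Co2, mt-Rnr2 and mt-Ts1.

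The largest falls were in scarce members. mt-Nd3, a small complex I subunit, was at 2.96, 3.69, 2.34, 5.06 and 2.15 without and 1.88, 1.80, 1.89, 0.23 and 1.14 with hormone (-2.18, SE 0.47, adjusted p = 0.000396). mt-Co2, which receives electrons from cytochrome c in complex IV, was at 7.16, 7.71, 6.79, 8.64 and 6.61 without and 6.12, 5.58, 4.95, 4.82 and 5.45 with hormone (-2.13, SE 0.38, adjusted p = 8.11e-05). Control mouse 4 was the highest untreated mouse for both. Without it the changes were -1.42 for mt-Nd3 and -1.65 for mt-Co2, and both were still called. mt-Rnr2 was at 2.02, 3.49, 2.71, 4.12 and 1.78 without and 1.21, 1.58, 0.27, 1.01 and 1.04 with hormone (-2.05, SE 0.40, adjusted p = 0.000177). mt-Rnr1 fell by 1.91 (SE 0.50, adjusted p = 0.00255).

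Among the abundant messages, mt-Cytb was at 16.60, 16.97, 16.24, 17.30 and 16.19 without hormone, and 15.82, 15.52, 14.96, 15.26 and 15.33 with it. The treated mice were all lower, with a change of -1.32 (SE 0.23, adjusted p = 5.52e-05), or 0.40 times the untreated level. mt-Nd4 fell by 1.32 (SE 0.22, adjusted p = 2.85e-05) and mt-Nd1 by 1.33 (SE 0.28, adjusted p = 0.000413). mt-Nd2 fell by 0.96 (adjusted p = 0.00325), mt-Nd6, the only message of the light strand, by 0.81 (adjusted p = 0.0108) and mt-Co1 by 0.78 (adjusted p = 0.00778). mt-Nd5, the longest message, was at 13.50, 13.74, 12.69, 13.07 and 12.96 without and 13.26, 13.49, 12.75, 12.37 and 12.78 with hormone. These overlapped almost fully (-0.26, SE 0.31, adjusted p = 0.53). Of the ATP synthase messages, mt-Atp6 fell by 1.36 (adjusted p = 0.000627), and mt-Atp8, its overlapping neighbour, was at -0.83 (SE 0.39, adjusted p = 0.081). mt-Nd4l, a scarce complex I message, was at 2.87, 2.40, 0.76, 1.46 and 1.07 without and 1.92, 2.03, 1.51, 0.83 and 1.89 with hormone, and did not pass.

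mt-Ts1 fell by 1.97 (SE 0.58, adjusted p = 0.00668) and mt-Tm by 1.06 (SE 0.36, adjusted p = 0.0170). The other 8 tested transfer RNAs did not pass. mt-Tc had 216, 198, 151, 117 and 189 counts without and 842, 1093, 647, 154 and 929 with hormone, and was at 1.31 (SE 0.57, adjusted p = 0.064). In log2 CPM 4 of 5 treated mice lay above all untreated mice, and treated mouse 4 lay below them. With total counts in place of TMM it was called higher (1.79, adjusted p = 0.00948).

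Several library measures moved with these falls. The length slope was -0.26 ± 0.23 without and 0.18 ± 0.10 with hormone, without overlap, so long genes counted for more in treated mice. With a trend on gene length taken out of each library, only mt-Co2 (-0.60, adjusted p = 0.016) and mt-Rnr2 (-0.99, adjusted p = 0.025) were called lower, and mt-Tc, mt-Tp, mt-Tq, mt-Atp8 and mt-Nd4l were called higher. mt-Cytb was then at -0.14 and mt-Nd4 at -0.28, and mt-Nd1, mt-Nd2, mt-Nd6, mt-Co1, mt-Atp6 and mt-Tm had positive values that did not pass. TMM factors were 0.80 ± 0.12 without and 1.10 ± 0.08 with hormone. With total counts, 10 members fell and 1 rose: mt-Nd2, mt-Nd6, mt-Co1 and mt-Tm no longer passed, and mt-Nd5 (0.21) and mt-Nd4l (0.21) turned positive, while the median of all genes moved from 0.04 to 0.48. The 10 myeloid markers summed to 0.00770% to 0.0177% of counts without and 0.0556% to 0.126% with hormone, with none at 0. Of these 6 were called higher, against 20.3% of all genes, and none lower. The 10 brown adipocyte markers summed to 3.06% to 5.52% and 1.34% to 2.13%. Of these 7 were called lower, against 22.9% of all genes, and 1 was called higher. The part of cell makeup in the falls was not tested.

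**Figure D3:**
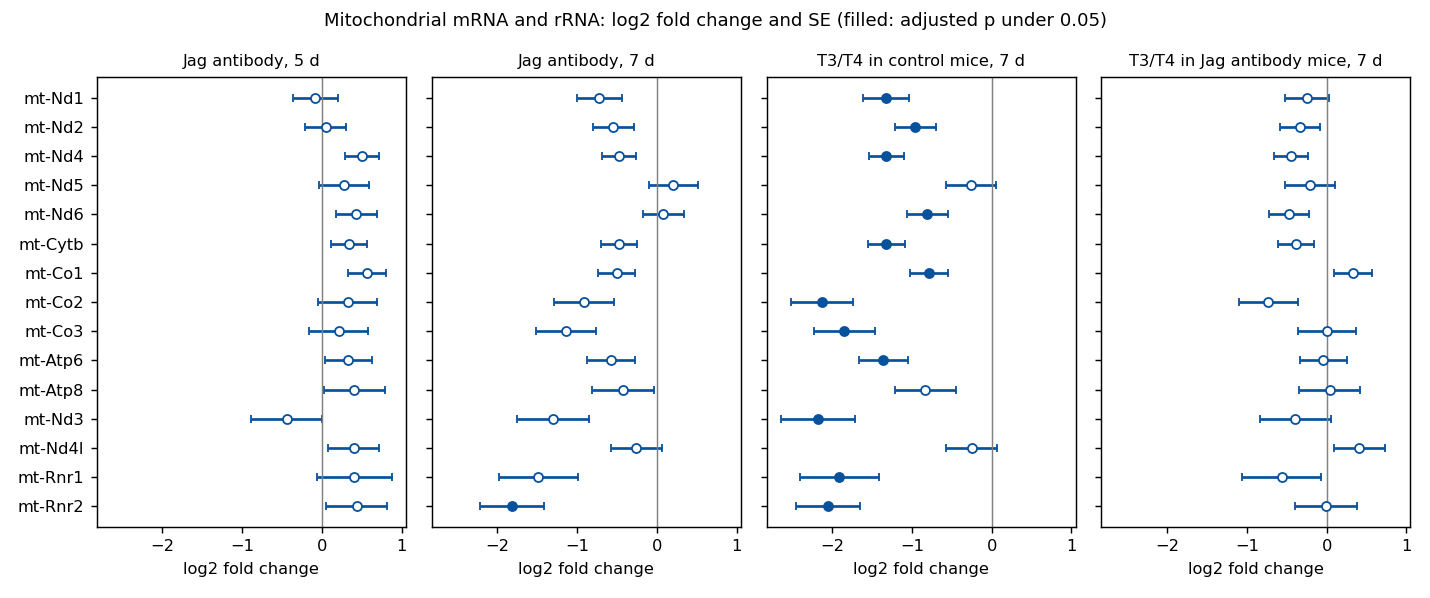
Log2 fold change with its SE for the 13 messages and 2 ribosomal RNAs in 4 comparisons (edgeR, TMM scaling); filled points have an adjusted p under 0.05. Of the 15 genes, 12 are filled and lower for T3/T4 in control mice, 1 (mt-Rnr2) for Jag antibody at 7 d and none in the other 2 panels.

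In Jag antibody mice, T3/T4 left none of the 25 members called, against 9.5% of all genes. 4 had an unadjusted p under 0.05 (mt-Nd4, mt-Tq, mt-Tm and mt-Tc), beside 4603 of all 17079 genes. The median over the 25 was -0.04, equal to that of all genes. mt-Cytb was at 15.51, 16.47, 16.34, 16.72 and 15.89 without and 15.83, 15.85, 15.86, 15.70 and 16.04 with hormone, and the treated mice lay inside the range of the untreated ones (-0.39, SE 0.23, adjusted p = 0.26). DESeq2 called mt-Tc higher (1.48, adjusted p = 0.044) and mt-Tm lower (-1.01, adjusted p = 0.038), and limma-voom called mt-Tc higher (1.97, adjusted p = 0.032). mt-Tc counts were 138, 117, 1181, 180 and 71 without hormone, where mouse 8 stood far above the rest. Without that mouse mt-Tc (2.49, adjusted p = 0.00513), mt-Tq (2.41, adjusted p = 0.00459) and mt-Ti (1.53, adjusted p = 0.024), the isoleucine transfer RNA, were called higher.

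Calls in control mice and none in Jag antibody mice do not show that the hormone acted differently in them, and the difference of the differences was tested directly. None of the 25 members passed, against 0.00586% of all genes, which was 1 gene, and DESeq2 and limma-voom called 0. 10 members had an unadjusted p under 0.05, beside 2103 of all 17079 genes. 24 of 25 values were positive (a smaller fall, or a rise, in Jag antibody mice), beside 7738 of all genes. The median over the 25 was 0.87, beside -0.07 over all genes. mt-Ts1 had the largest value, 3.08 (SE 0.81, adjusted p = 0.34), then mt-Rnr2, 2.04 (SE 0.56, adjusted p = 0.37). mt-Cytb was at 0.93 (SE 0.32, adjusted p = 0.37) and mt-Nd5 at 0.04 (SE 0.44).

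The mix of the messages also varied. mt-Cytb held 30.4% to 46.0% of message counts in a mouse. mt-Nd5 ranged from 2.20% in control mouse 4 at 7 d to 8.64% in control mouse 2 at 15 h. The length slopes of those 2 mice were -0.62 and 0.21. The 4 lowest mt-Nd5 shares, up to 3.07%, were in mice with slopes of -0.62 to -0.20, and the 4 highest, from 8.44%, in mice with slopes of 0.03 to 0.28. mt-Nd5 is the longest message at 1824 bases, and the part of the length slope in its share was not tested. T3/T4 in control mice went with more mt-Nd5, 6.85% ± 1.17 against 3.89% ± 1.00, without overlap. mt-Co1 held 12.7% ± 1.03 with and 9.81% ± 1.10 without hormone in control mice, and 14.7% ± 1.01 with and 9.83% ± 0.87 without it in Jag antibody mice. Neither pair overlapped. At 5 d mt-Co1 held 14.9% ± 1.21 in Jag antibody and 12.4% ± 1.33 in control mice, and these groups overlapped, from 13.2% upward in the first and up to 13.7% in the second. mt-Nd6 held 2.70% ± 0.48 in Jag antibody and 1.89% ± 0.26 in control mice at 7 d without hormone, and mt-Nd2 13.5% ± 0.42 and 12.6% ± 0.25 at 15 h, and neither of these 2 pairs overlapped.

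**Figure D4:**
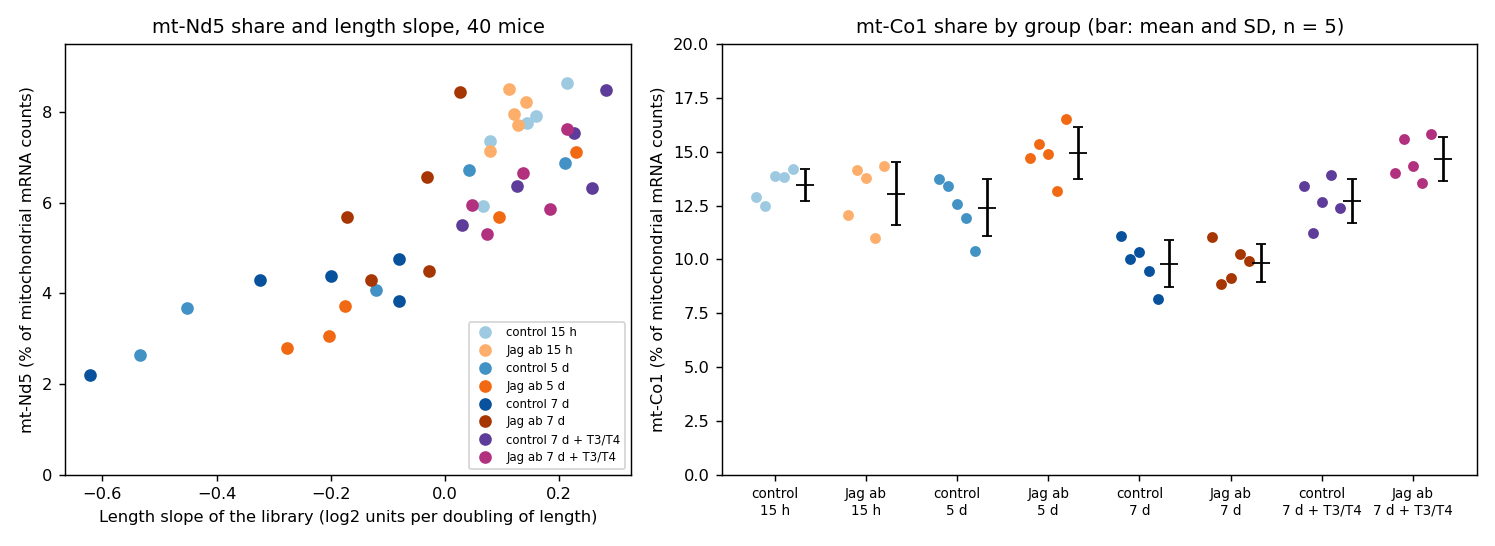
Left, the percentage of message counts on mt-Nd5 against the length slope of the library (log2 units per doubling of gene length), 1 point per mouse. Right, the percentage on mt-Co1 by group, with mean and SD of 5 mice; both hormone groups at 7 d (11.2% to 15.8%) lie above both groups without hormone (8.16% to 11.1%).

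Nuclear partners gave a second view of the respiratory chain. Counts on 75 nuclear subunit genes summed to 3.63% ± 0.90 and 3.88% ± 0.33 of the library in control and Jag antibody mice at 15 h, and to 7.60% ± 2.04 in control mice at 7 d. Mitochondrial message counts per nuclear subunit count were 5.48 to 8.43 over the 10 mice at 15 h and 1.74 to 5.18 over the 30 later mice, without overlap. Transfer RNA genes held 166 to 320 CPM of the library total at 15 h and 21.2 to 177 later, and overlapped. Times were not tested against each other.

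Under T3/T4 in control mice, 70 of the 74 tested nuclear subunits fell and none rose, against 22.9% of all genes called lower and 43.2% in either direction. Their median was -1.83, beside 0.04 over all genes. The length slopes of these 2 groups did not overlap, as given above, and the part of gene length in these falls was not tested. Cox8b, a small complex IV subunit of heart, muscle and brown fat, fell most (-2.87, SE 0.49, adjusted p = 4.85e-05). Sdha (-0.30), Ndufs1 (-0.25), Uqcrc1 (-0.49) and Atp5g1 (-0.16) did not pass. In Jag antibody mice 1 of 74 fell, Cox7c (-0.78, SE 0.25, adjusted p = 0.038), a smaller share than the 5.21% of all genes called lower and 9.5% in either direction. The list median there was -0.62, beside -0.04 over all genes. Between antibodies, 3 of 74 fell at 5 d in Jag antibody mice and none rose, against 5.93% of all genes called lower and 8.02% in either direction. These were the ATP synthase subunits Atp5g1 (-5.29, SE 0.97, adjusted p = 0.0025), Atp5g3 (-1.29, SE 0.30, adjusted p = 0.0094) and Atp5j (-1.34, SE 0.39, adjusted p = 0.028), in the groups that did not overlap in muscle markers, whose part was not tested. At 15 h, at 7 d and under hormone none of the 74 was called in edgeR. At 7 d 50 of them had an unadjusted p under 0.05, as 3504 of all 17079 genes did, and their median was -0.83, beside 0.05 over all genes. At 15 h 1 had such a p, beside 2052 of all genes, and under hormone 2, beside 2026. Message counts per nuclear subunit count were 2.70 ± 0.57 in control mice at 7 d and 3.10 ± 0.61 with hormone, and overlapped.

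**Figure D5:**
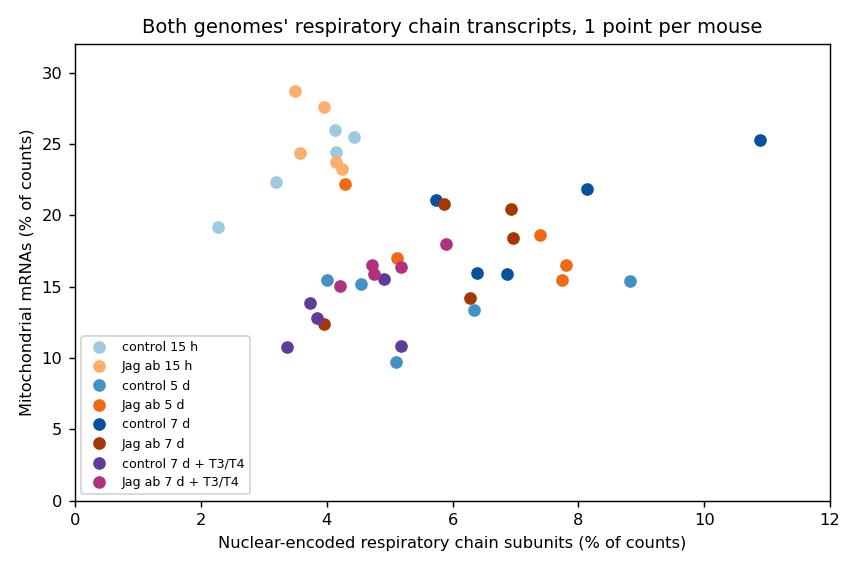
Percentage of counts on mitochondrial messages against that on 75 nuclear respiratory chain subunits, 1 point per mouse. Mice at 15 h lie above 19% at under 5% nuclear subunits. Hormone-treated control mice lie lower on both axes than all control mice at 7 d without hormone.

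Of 38 tested genes for mitochondrial transcription, genome copying and RNA processing, 22 fell and 1 rose with T3/T4 in control mice, against 22.9% of all genes called lower, 20.3% higher and 43.2% in either direction. The list median was -0.53, beside 0.04 over all genes. Here too the groups differed in length slope, and the part of gene length in these values was not tested. Slirp, which stabilises mitochondrial messages with Lrpprc, fell by 1.80 (SE 0.35, adjusted p = 0.00018), while Lrpprc itself was at 0.23 (SE 0.22). Hsd17b10, a subunit of the enzyme that cuts transfer RNA 5′ ends, fell by 1.35 (SE 0.32, adjusted p = 0.00097), and Esrra, a receptor that drives nuclear respiratory genes, by 1.19 (SE 0.32, adjusted p = 0.0033). Tfam, which packs the mitochondrial genome and starts its transcription, was at 6.18 ± 0.28 without and 5.44 ± 0.12 with hormone (-0.76, SE 0.15, adjusted p = 0.00019). The gene that rose was Polg, the mitochondrial DNA polymerase, at 0.38 (SE 0.13, adjusted p = 0.016). Polrmt, the mitochondrial RNA polymerase, was at -0.24 (SE 0.26) and did not pass.

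In the other comparisons at most 2 of the 38 were called, and the values below are those of single genes and not a result about the list. In Jag antibody mice 1 of the 38 fell with hormone, against 5.21% of all genes called lower and 9.5% in either direction. It was Tfb1m, an rRNA methyltransferase, at -0.54 (SE 0.18, adjusted p = 0.043). At 5 d 2 rose in Jag antibody mice, against 2.09% of all genes called higher and 8.02% in either direction: Ppargc1a, a coactivator of mitochondrial biogenesis (1.11, SE 0.36, adjusted p = 0.049), and Mterf4, of mitochondrial ribosome assembly (0.77, SE 0.21, adjusted p = 0.024). At 7 d 1 fell, against 1.29% of all genes called lower and 2.5% in either direction: Rexo2, a nuclease that clears short RNA (-0.65, SE 0.16, adjusted p = 0.021). Under hormone 1 rose, against 0.697% of all genes called higher and 1.14% in either direction: Hsd17b10, at 9.15 ± 0.42 in Jag antibody and 7.31 ± 0.43 in control mice (1.83, SE 0.32, adjusted p = 0.00153). Of 7 tested nuclear copies on chromosome 1, 5 fell with T3/T4 in control mice, against 22.9% of all genes called lower, and 1 rose at 5 d in Jag antibody mice, Gm29216, which matches part of mt-Co1 (1.02, SE 0.24, adjusted p = 0.0104), against 2.09% called higher. Gm28661 was at -2.01 (SE 0.33) beside -2.13 for mt-Co2, Gm28438 at -2.41 (SE 0.50) beside -2.18 for mt-Nd3, and Gm10925 at -1.23 (SE 0.28) beside -1.36 for mt-Atp6. The members of each pair share nearly all their sequence, so their counts are not independent.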

How the data were processed

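Bulk RNA of brown adipose tissue was sequenced as single-end 50 bp reads, per the labels' protocols. The authors deposited raw counts per Ensembl gene, 1 column per mouse, and a companion FPKM table. The FPKM values were used only to check gene length: for these genes each deposited FPKM was the count divided by a library factor and the annotated length. The submitters' processing notes name GSNAP and limma; the genome build, annotation, treatment of reads with several matches and use of strand are not given in the sources used here. Mouse symbols were looked up by identifier and found for 52403 of 52636 genes. Positions and sequences came from GENCODE M21 (GRCm38).

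Groups came from the labels. These number the samples of a group without stating that each is a separate animal; otherwise p-values measure only the spread between samples. The test was edgeR (version 4.0.16, R version 4.3.3): filterByExpr over 8 groups (17079 genes), TMM, robust quasi-likelihood F tests in 1 fit over 40 libraries, Benjamini-Hochberg adjustment over all genes, threshold 0.05, prior count 2. Standard errors follow from the F statistic. The script was tested on simulated data. Alternatives were DESeq2 1.42.0, limma-voom (limma 3.58.1), other scalings, no filter, fewer groups, a muscle covariate (mean log2 CPM of 8 markers), a length trend per library (lowess, span 0.3), the title number as a block and leaving out each mouse. The length slope used 9014 genes whose mean reached 3 on the log2 CPM scale. Sums and shares are given as mean ± SD with no test. Intervals and the limit for a count of 0 (3 counts) cover counting error only.

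The members, lists and tests were chosen with earlier results of these data known. Values are given for the 13 messages and 2 ribosomal RNAs, transfer RNAs past the filter, and up to 3 called members per direction with the largest change. The last rule was also used for called genes of the transcription and RNA processing list. Members named for their share of message counts were chosen after their values were seen. Of that list 39 of 40 symbols, and of the nuclear subunits 75 of 76, were in the table. Outside these rules, Cox8b, Cox7c, the 3 nuclear subunits called at 5 d, the 4 that did not pass with T3/T4, Tfam, Lrpprc, Polrmt, Hsd17b10 under hormone and the nuclear copies were named after their values were seen.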

Additional observations from a re-analysis of the deposited data

Results flagged for a closer look

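In each group, 6 summed measures were searched for a mouse set apart from the next one by more than 0.71 of the group's range. Of 48 groups of values 3 had one, and chance alone gives about 2.4. Jag antibody mouse 8 at 7 d without hormone had 94.6 CPM of the library total on transfer RNA genes, with the next mouse at 31.7, and 6.35 CPM on the ribosomal RNAs, with the next at 3.52. It had 1181 counts on mt-Tc. Control mouse 1 at 7 d had 3.68 mitochondrial message counts per nuclear subunit count, with the next at 2.68.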

How the results depend on the processing

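The 14 falls with T3/T4 in control mice were called in every fit that left out 1 mouse, and the count ranged from 14 to 16. With a length trend taken out 7 members were called, 5 of them higher. The values of mt-Atp6 (0.18), mt-Co1 (0.19), mt-Nd1 (0.019), mt-Nd2 (0.31), mt-Nd6 (0.68) and mt-Tm (0.97) then changed sign, none called; the cause was not tested. At 5 d the count of 0 became 2 with total counts and ranged from 0 to 1 on leaving out a mouse. At 7 d the count of 1 became 0 in a fit of the 2 groups alone and 4 with DESeq2, and ranged from 0 to 3 on leaving out a mouse: 0 without control mouse 4, 2 without control mouse 5, and 3 without control mouse 3 or Jag antibody mouse 8. For T3/T4 in Jag antibody mice the count of 0 became 1 with the muscle covariate (mt-Tm lower), 2 with the length trend (mt-Co1 and mt-Ts1 higher), 1 with limma-voom and 2 with DESeq2. On leaving out a mouse it ranged from 0 to 3: 3 without mouse 8, and 1 (mt-Tm) without mouse 6 or mouse 10. At 15 h, between antibodies under hormone and for the interaction the count was 0 under every alternative run. With a TMM library size as the denominator the share difference was -7.50 percentage points for the antibody at 7 d and -14.4 for T3/T4 in control mice, instead of -2.74 and -7.21. For the antibody at 5 d it was 3.19 on that denominator, and the groups then overlapped. The 15 h groups were not the highest for every measure on the TMM scale. There mt-Cytb averaged 16.66 log2 CPM in control mice at 7 d without hormone. At 15 h it averaged 16.15 in control and 16.30 in Jag antibody mice.

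Hormone comparisons share title numbers, and the labels do not say what a number marks. Deviations of same-numbered mice correlated from -0.316 to 0.639 in control and from -0.290 to 0.668 in Jag antibody mice, and not every mouse correlated best with its own number, so the numbers were not taken to pair mice. With the number as a replicate block the counts were 14 for T3/T4 in control mice, 1 in Jag antibody mice (mt-Tc higher) and 0 for the interaction.

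mt-Rnr1 and mt-Rnr2 rested on at most 235 and 162 counts a mouse, which limits precision there. Values of mt-Co2, mt-Co3, mt-Atp6, mt-Nd3 and mt-Nd4l are uncertain beyond their replicate error, since the handling of reads with several sources is unknown.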
